A study of Homo sapiens with 7 samples.

Results

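SR proteins, hnRNP proteins and the kinases that act on SR proteins were followed as RNA in 7 libraries of 2 human T-cell leukaemia cell lines. The genes were taken by symbol and type: all protein-coding genes named SRSF with a number, TRA2A or TRA2B (14 SR genes), all named HNRNP (27 hnRNP genes), and CLK1 to CLK4 with SRPK1 to SRPK3 (7 kinase genes). That made 48 of 60662 genes, of which 20004 were protein-coding. The symbols decide membership, so the set holds near-copies such as HNRNPA1L2 and HNRNPA1P48 and the readthrough gene HNRNPUL2-BSCL2.

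SR proteins bind short RNA elements, often within exons, and recruit the spliceosome to neighbouring splice sites. Proteins of the hnRNP group coat new transcripts and often act against SR proteins on the same splice sites, and several also handle RNA export and decay. SRPK kinases phosphorylate the arginine-serine stretches of SR proteins and so let them enter the nucleus, while CLK kinases phosphorylate them inside it. Many genes of these families control their own level by splicing in an exon that carries a stop codon, which sends the transcript to nonsense-mediated decay.

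PF-382 cells were sequenced as untreated wild type (2 libraries) and after STAG2 knockout with a Cas9 and guide RNA ribonucleoprotein (3 libraries). MOLT-14 cells were sequenced after transduction with an empty vector (1 library) or with STAG2 (1 library). STAG2 is a subunit of cohesin, the ring that holds and loops DNA. Both lines grew in the same medium, RNA came from freshly cultured live cells, and total RNA libraries were made. The labels give each PF-382 library its own code but do not say whether the codes are clones, cultures or repeat preparations, so p values measure the spread between these libraries, which may be technical. The numbers 1 to 3 used here only name libraries. The codes of both wild-type libraries and of knockout 1 begin with SA, and those of knockout 2 and knockout 3 begin with SB. What these letters mean is not stated.

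The wild-type libraries held 32609485 and 33145516 counts, the knockout libraries 65262329 to 93970572, and the MOLT-14 libraries 38678382 and 45013450, so the deeper PF-382 libraries are all knockout and depth cannot be told apart from genotype. Small RNA genes took 21.0% and 14.9% of the wild-type counts, 11.96% to 13.98% of the knockout counts and 4.87% and 9.27% of the MOLT-14 counts. STAG2 itself was at 315 and 537 CPM (library-scaled counts, with edgeR's TMM scaling to a total of 1e+06) in wild type and at 239, 166 and 181 CPM in the knockout, a log2 change of -1.13 (SE 0.26, adjusted p = 0.0218). Summed reads do not show whether the remaining transcript is in frame. In MOLT-14 it was at 1.35 CPM with the empty vector and at 164 CPM with STAG2. The marker sums that follow are CPM without TMM scaling. The 13 T-cell marker genes summed to 3539 to 5026 CPM in the PF-382 libraries and to 3056 and 3092 CPM in MOLT-14. Of the 12 tested genes, 1 was lower in the knockout (CD5, log2 -0.95) and 11 were not called. B-lineage markers (2 of 6 tested, 0 called) summed to 6.85 and 38.0 CPM in wild type and 4.14 to 17.8 CPM in the knockout, with MS4A1 at 0 in all 7 libraries. Myeloid markers (2 of 7 tested, 0 higher and 2 lower) summed to 17.4 and 26.3 CPM in wild type and to 0.603 to 1.35 CPM in the knockout. Erythroid markers were at 0 counts in all libraries for 4 of 6 genes, and none could be tested. The part that these differences have in the results below was not tested, and in bulk RNA fewer cells of a type and less RNA per cell cannot be told apart.

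Per length, on the TPM scale rescaled to protein-coding genes, the hnRNP genes summed to 7028 to 10094 over the 7 libraries, the SR genes to 2147 to 3760 and the kinases to 236 to 427. On this scale HNRNPA1, which binds silencer elements and shuttles RNA to the cytoplasm, had the highest median level over the 7 libraries (1997), though not the highest level in each of them, followed by HNRNPC (1636), HNRNPH1 (832), HNRNPK (676) and SRSF3 (640). The ranges over libraries overlapped for each neighbouring pair in this order. SRSF12 was the lowest gene that could be tested, with a median of 0.549. The HNRNPC-like genes HNRNPCL2, HNRNPCL3 and HNRNPCL4 had 0 counts in all 7 libraries, which allows up to 0.0319 to 0.0920 CPM (3 counts), HNRNPCL1 had 1 count in 1 library, and SRPK3 had at most 2.53 estimated counts. These 5 genes were not tested, and the other 43 passed the filter on low counts in PF-382 (14 SR, 23 hnRNP and 6 kinase genes). Some counts are fractional: 21 of the 48 genes had fractional counts in at least 1 library, among them HNRNPA1, HNRNPA1L2, HNRNPA1P48, HNRNPC, HNRNPK, SRSF1 and SRSF6, so their reads are partly assigned by the counting model. Near-copies and overlapping genes may both share reads, and which genes shared them was not tested.

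As a share of all protein-coding counts, the SR genes were higher in each knockout library than in either wild-type library. They took 0.287% and 0.261% of the coding counts in wild type, 0.455%, 0.434% and 0.455% in the knockout, and 0.347% and 0.332% in MOLT-14 with empty vector and with STAG2. The hnRNP genes took 0.823% and 0.904% in wild type, 1.09%, 0.963% and 0.971% in the knockout, and 1.001% and 1.10% in MOLT-14. The kinase share was lower in each knockout library than in either wild-type library, with 0.0574% and 0.0726% in wild type, 0.0564%, 0.0480% and 0.0518% in the knockout, and 0.0535% and 0.0490% in MOLT-14. In no class did the wild-type and knockout libraries overlap, but for the kinases knockout 1 lay close to wild type 1.

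**Figure D1:**
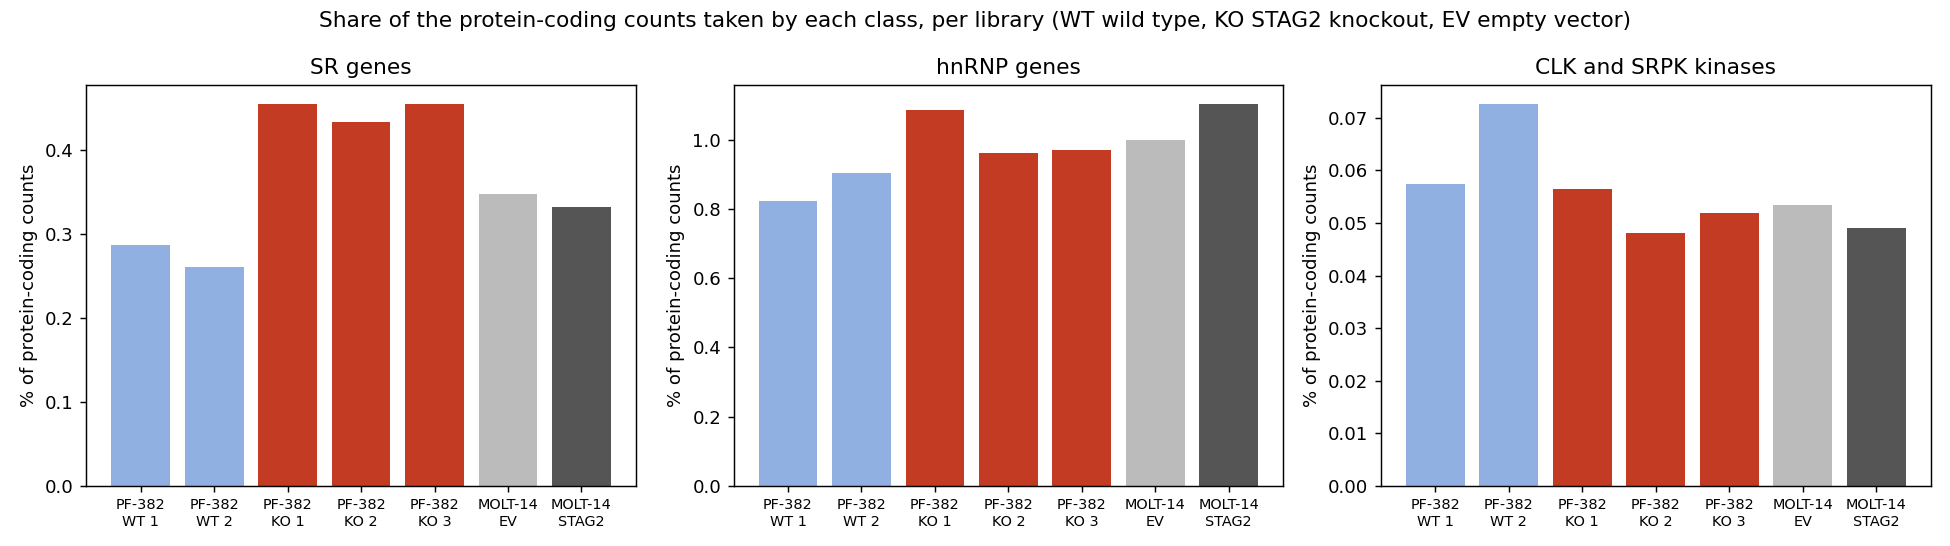
Share of the protein-coding counts (percent, axis from 0) taken by the 14 SR, 27 hnRNP and 7 kinase genes in each of the 7 libraries, 1 bar per library. The 3 knockout bars lie above both wild-type bars for SR and hnRNP genes (0.434% to 0.455% against 0.261% and 0.287% for SR genes) and below both for the kinases.

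The comparison of knockout with wild-type PF-382 asks which of these genes follow the loss of STAG2. Among SR genes, 8 of 14 rose, 1 fell and 5 were not called (edgeR quasi-likelihood test, two-sided, Benjamini-Hochberg adjusted p under 0.05 over 17442 genes). Of all 13048 protein-coding genes tested, 19.9% rose and 12.4% fell. The median log2 change of the SR genes was 0.66, from -0.60 to 1.53, beside 0.09 for all protein-coding genes tested. In 9 SR genes all knockout libraries lay above both wild-type libraries and in 1 they lay below, while groups separated in these directions for 36.1% and 23.9% of coding genes. Upper-quartile scaling moved the median of all genes from -0.02 to -0.18 and the share of higher genes among all calls from 52.0% to 33.8%. With that scaling 13.1% of coding genes rose and 18.3% fell. The SR median was then 0.49, with 7 SR genes higher and 1 lower, and the hnRNP median was 0.13, with 5 genes higher and 1 lower.

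SRSF1, a founding SR protein that binds purine-rich exonic enhancers, showed the largest change of the 43 genes and lies at chr17:58003360-58007346 on the minus strand (GRCh38, GENCODE 29). It was at 255 and 259 CPM in wild type and at 757, 712 and 757 CPM in the knockout. The 3 knockout libraries lay close together and far above both wild-type libraries, a 2.89-fold rise (log2 1.53, SE 0.13, adjusted p = 0.00218). SRSF2, which also binds exonic enhancers and is mutated in myeloid neoplasms, was at 210 and 175 CPM in wild type and at 476, 462 and 507 CPM in the knockout. The groups were again apart, by 2.50-fold (log2 1.32, SE 0.14, adjusted p = 0.00317). SRSF1 overlaps exons of AC015813.2 on its own strand and of AC015813.5 on the other strand. SRSF2 overlaps exons of MFSD11 on the other strand and of MIR636. The strand setting of the counting is not given in the sources used here, so reads of these genes may be mixed.

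SRSF3 and SRSF7, small SR proteins that also help to export mRNA, rose together. SRSF3 was at 317 and 352 CPM in wild type and at 612, 569 and 616 CPM in the knockout (log2 0.84, SE 0.13, adjusted p = 0.00679). SRSF7 was at 175 and 169 CPM in wild type and at 320, 296 and 343 CPM in the knockout (log2 0.90, SE 0.13, adjusted p = 0.00566). Neither gene had a knockout library within the wild-type range. SRSF9 went from 67.8 and 83.8 CPM to 146, 138 and 133 CPM (log2 0.88, SE 0.13, adjusted p = 0.00687). TRA2B, an SR-like splicing activator that favours GAA-rich exons, went from 240 and 257 CPM to 423, 404 and 446 CPM (log2 0.77, SE 0.12, adjusted p = 0.0076). The groups were apart for both genes, although SRSF9 shares exonic sequence with GATC on the other strand.

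SRSF6, an SR protein of the larger kind with paired RNA recognition motifs, had the widest wild-type spread of the called SR genes. Its wild-type libraries were at 236 and 134 CPM and its knockout libraries at 381, 374 and 393 CPM (log2 1.05, SE 0.24, adjusted p = 0.0217). All knockout libraries were higher, but the adjusted p was 0.065 to 0.0758 when any 1 knockout library was left out. TRA2A, the paralogue of TRA2B, was the eighth SR gene that rose (35.8 and 37.7 CPM against 62.4, 48.8 and 49.7 CPM, log2 0.55, SE 0.15, adjusted p = 0.0347) and is named here after its values were seen.

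SRSF5, an SR protein known to respond to growth signals, was the SR gene that fell. It was at 209 and 175 CPM in wild type and at 131, 132 and 116 CPM in the knockout (log2 -0.60, SE 0.13, adjusted p = 0.0187). The groups did not overlap, and the adjusted p was 0.058 to 0.0748 without any 1 knockout library. Of the genes not called, SRSF10, which is active as a repressor when dephosphorylated, was at 136 and 183 CPM in wild type and at 227, 206 and 234 CPM in the knockout (log2 0.48, SE 0.16, adjusted p = 0.064). SRSF12, at 0.766 and 1.78 CPM in wild type and 1.22, 1.14 and 0.492 CPM in the knockout, overlapped between groups (log2 -0.42, SE 0.53, adjusted p = 0.578). SRSF4, SRSF8 and SRSF11 had log2 changes of 0.05, 0.18 and 0.22 and overlapping libraries.

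**Figure D2:**
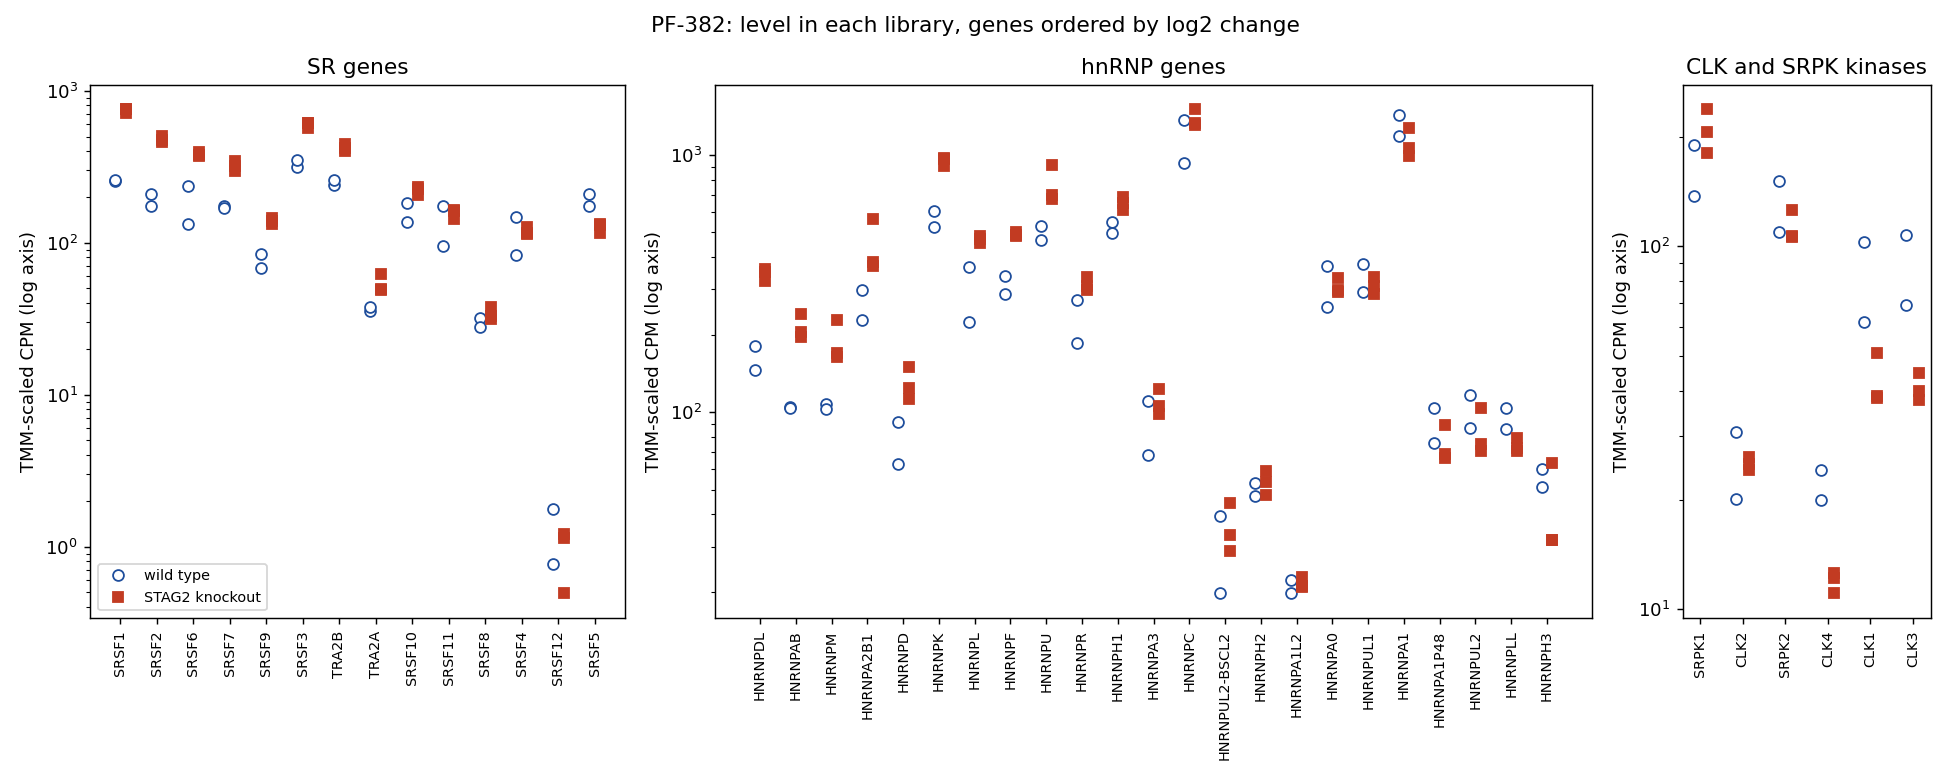
Level of each of the 43 tested genes in the 5 PF-382 libraries, as TMM-scaled CPM on a log axis, with genes ordered by log2 change within each class; open circles are wild type and squares are STAG2 knockout. SRSF1 shows the widest gap, 255 and 259 CPM against 712 to 757 CPM, and CLK3, CLK1 and CLK4 have all 3 squares below both circles.

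Of the hnRNP genes 7 of 23 rose, 0 fell and 16 were not called, beside 19.9% of coding genes higher and 12.4% lower. The median log2 change was 0.29, from -0.39 to 1.08. All knockout libraries lay above both wild-type libraries for 11 genes and below for 1, with 11 overlapping, beside 36.1% and 23.9% of coding genes. At an unadjusted p value under 0.05, 1 hnRNP gene was lower, HNRNPLL, with wild-type libraries at 86.0 and 104 CPM and knockout libraries at 70.4, 72.3 and 79.4 CPM (edgeR adjusted p = 0.0747), and DESeq2 also called 0 lower. The median depends on single wild-type libraries. Leaving out wild type 1 gave an hnRNP median of 0.03, the same as the median of all genes in that fit (0.03). Leaving out wild type 2 gave 0.70, while the median of all genes stayed at 0.02. Each of these fits has only 1 wild-type library.

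HNRNPAB, a relative of HNRNPA1 that binds AU-rich RNA, had the smallest adjusted p of the class and lies at chr5:178204507-178211163 on the plus strand. It was at 105 and 103 CPM in wild type and at 240, 206 and 196 CPM in the knockout (log2 1.04, SE 0.13, adjusted p = 0.00469). HNRNPDL, a paralogue of the AU-rich element binding protein HNRNPD, was at 146 and 180 CPM in wild type and at 360, 323 and 350 CPM in the knockout (log2 1.08, SE 0.14, adjusted p = 0.00505). Both genes were a little over 2-fold higher, by 2.06-fold and 2.11-fold, with no overlap between groups. HNRNPD itself went from 62.6 and 91.6 CPM to 150, 113 and 124 CPM (log2 0.74, SE 0.21, adjusted p = 0.0377).

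HNRNPK, a protein with KH domains that binds C-rich RNA and DNA, was at 526 and 605 CPM in wild type and at 969, 903 and 962 CPM in the knockout (log2 0.74, SE 0.14, adjusted p = 0.0112). HNRNPF, which binds G-rich RNA, was at 287 and 338 CPM in wild type and at 488, 483 and 502 CPM in the knockout (log2 0.65, SE 0.13, adjusted p = 0.0147). In both genes the knockout libraries lay above the wild-type libraries by more than the spread within either group. HNRNPM was at 108 and 103 CPM against 227, 170 and 164 CPM (log2 0.83, SE 0.17, adjusted p = 0.0164), with knockout 1 the highest. HNRNPU, a nuclear scaffold protein that contacts chromatin, was at 465 and 530 CPM against 917, 701 and 671 CPM (log2 0.62, SE 0.18, adjusted p = 0.044), again highest in knockout 1.

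The calls of HNRNPK, HNRNPF, HNRNPD and HNRNPU were lost whenever 1 knockout library was left out, with adjusted p values of 0.0511 to 0.114. HNRNPD and HNRNPU were also not called with upper-quartile scaling (0.0569 and 0.079), with protein-coding genes only (0.0505 and 0.0623) or without wild type 1 (0.0683 and 0.077). HNRNPA2B1 (227 and 298 CPM against 565, 371 and 382 CPM, log2 0.74, SE 0.24, adjusted p = 0.0545) and HNRNPL (225 and 366 CPM against 484, 456 and 472 CPM, log2 0.67, SE 0.21, adjusted p = 0.0561) were not called, although their groups did not overlap. HNRNPA1 was at 1186 and 1434 CPM in wild type and at 1268, 1059 and 991 CPM in the knockout (log2 -0.24, SE 0.17, adjusted p = 0.308), and its libraries overlapped.

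Among the kinases 0 of 6 rose, 3 fell and 3 were not called, and all 3 that fell are CLK genes, beside 19.9% of coding genes higher and 12.4% lower. The count of kinases that rose was 0 also at an unadjusted p under 0.05 in edgeR and with DESeq2, but SRPK1 was called higher without wild type 2 (adjusted p = 0.0366). The median log2 change of the class was -0.54, from -1.11 to 0.35, and it stayed below 0 in each alternative run. CLK3 was at 68.9 and 107 CPM in wild type and at 37.8, 39.8 and 44.8 CPM in the knockout. Every knockout library was below both wild-type libraries, by 2.16-fold on average (log2 -1.11, SE 0.20, adjusted p = 0.01). CLK3 overlaps exons of EDC3 on the other strand, as HNRNPU does those of COX20, HNRNPAB those of PHYKPL and HNRNPA2B1 those of CBX3. HNRNPK, HNRNPD and HNRNPM likewise overlap exons of AL354733.3, AC124016.1 and AC136469.2. The counts of these members may therefore hold reads of the genes they overlap. CLK4, at chr5:178602664-178630615 on the minus strand, was at 19.96 and 24.2 CPM in wild type and at 12.2, 11.1 and 12.6 CPM in the knockout (log2 -0.89, SE 0.15, adjusted p = 0.00869). CLK1, whose own transcript is known to be held in the nucleus with introns retained and to be spliced after stress, was at 61.8 and 102 CPM in wild type and at 38.8, 38.2 and 50.8 CPM in the knockout (log2 -0.95, SE 0.24, adjusted p = 0.0275). CLK1 was not called without wild type 2 (adjusted p = 0.0691), without knockout 1 (0.0895) or without knockout 2 (0.0884).

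The remaining 3 kinases were not called. CLK2 was at 20.2 and 30.7 CPM in wild type and at 25.2, 26.3 and 24.1 CPM in the knockout (log2 -0.01, SE 0.19, adjusted p = 0.959). SRPK1 was at 138 and 190 CPM against 239, 180 and 206 CPM (log2 0.35, SE 0.19, adjusted p = 0.203), and SRPK2 at 110 and 151 CPM against 126, 106 and 107 CPM (log2 -0.20, SE 0.17, adjusted p = 0.389). These 3 genes overlapped between groups. Whether CLK1, CLK3 and CLK4 differ from CLK2 in their response was not tested.

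**Figure D3:**
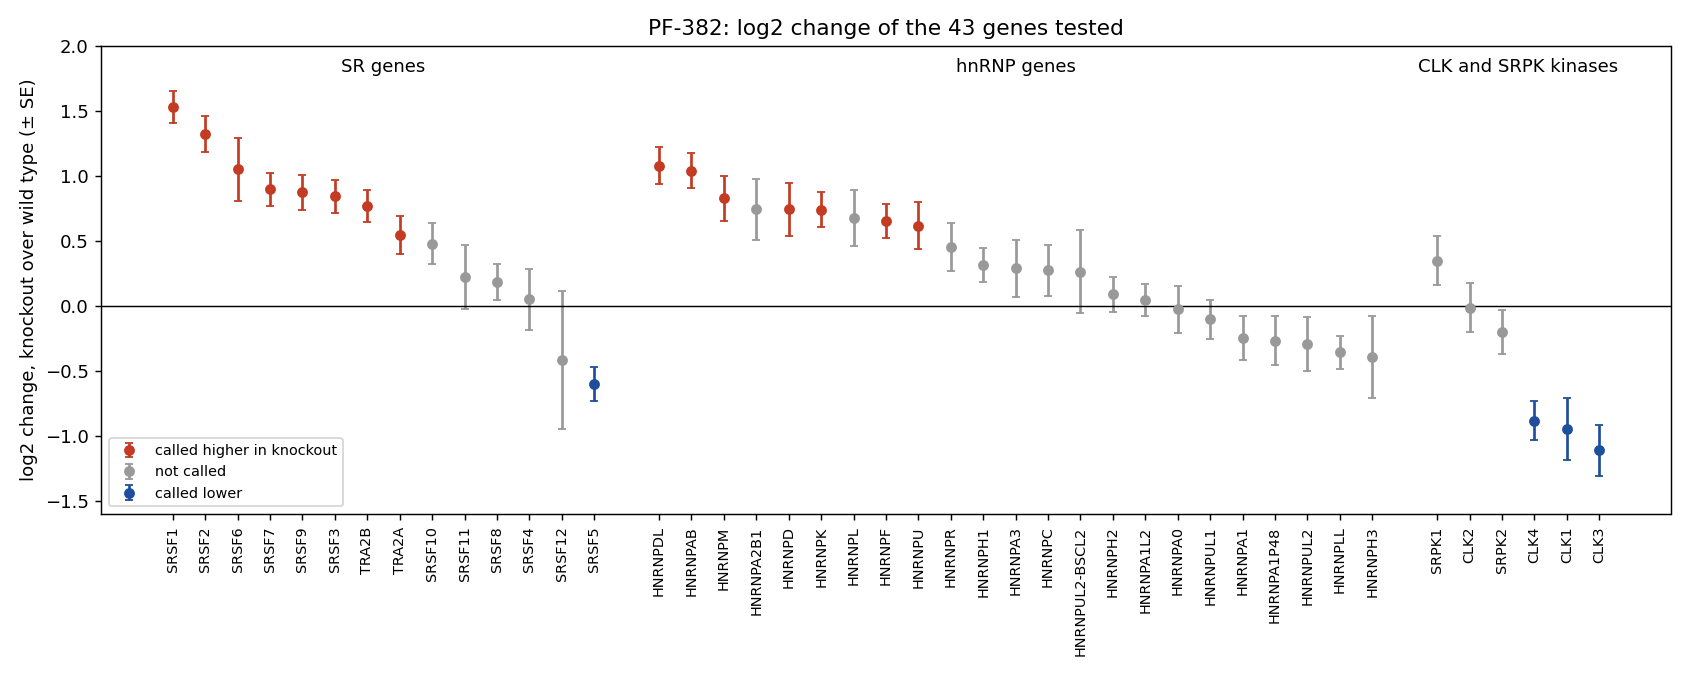
Log2 change of knockout over wild type in PF-382 for the 43 tested genes (points) with its standard error (bars), in 3 blocks by class; red marks genes called higher, blue genes called lower and grey genes not called. The SR block runs from 1.53 (SRSF1) to -0.60 (SRSF5), and CLK4, CLK1 and CLK3 lie near -1.

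A list of 10 heat shock genes moved between the same groups, with 2 higher, 6 lower and a median log2 change of -1.18. Of all coding genes tested, 19.9% were higher and 12.4% lower. HSPA6, an inducible heat shock protein, had a wild-type mean of 119 CPM ± 55.5 (SD, n = 2) and a knockout mean of 0.191 CPM ± 0.0904 (SD, n = 3), and HSPA1B had means of 784 ± 269 and 53.3 ± 4.91 CPM. HSPA8, a constitutive chaperone, and HSPE1 rose with log2 changes of 1.14 each. Summed over the list, as CPM without TMM scaling, the libraries overlapped, with 3291 and 5141 CPM in wild type and 3881 to 4271 CPM in the knockout. The part of these differences in the changes of SR, hnRNP and CLK genes was not tested.

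Other RNA processing genes are given beside 19.9% of coding genes higher and 12.4% lower, from lists written with earlier results of these data known. Of 67 core spliceosome genes 30 rose and 3 fell (median log2 change 0.46), among them EFTUD2 (1.08, SE 0.12, adjusted p = 0.00364) and PRPF31 (1.02, SE 0.11, adjusted p = 0.00351), a GTPase and an assembly factor of the spliceosome. Of 56 other splicing regulators 12 rose and 3 fell (median 0.11). The share that rose was near the background and the share that fell was below it. The smallest adjusted p values were those of the nuclear matrix protein MATR3 (1.20, SE 0.16, adjusted p = 0.00511) and SYNCRIP (1.12, SE 0.15, adjusted p = 0.00536). Of 16 nonsense-mediated decay genes 7 rose and the other 9 were not called (median 0.42), and those that rose include MAGOHB of the exon junction complex (1.23, SE 0.12, adjusted p = 0.00277). Of 12 genes for SR protein import and for other kinases and phosphatases of splicing, 2 rose, also near the background, both catalytic subunits of protein phosphatase 1 (PPP1CA, log2 1.0004, and PPP1CB, log2 0.91), and 1 fell, AKAP17A (log2 -0.59).

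The promoters of 5 called genes are shown, 2 SR and 2 hnRNP genes that rose and 1 CLK gene that fell, because genes of these families moved in opposite directions. They are stretches of the 250 bases before the RefSeq start (build GRCh38.p14), cut where GENCODE 29 places an exon of the gene itself, written 5′ to 3′ along the gene. Capitals mark CCAAT (or ATTGG, its other strand) and CACGTG, the letters of the CCAAT box and of the E-box that MYC family proteins bind.
SRSF1, chr17:58007347-58007496, minus strand: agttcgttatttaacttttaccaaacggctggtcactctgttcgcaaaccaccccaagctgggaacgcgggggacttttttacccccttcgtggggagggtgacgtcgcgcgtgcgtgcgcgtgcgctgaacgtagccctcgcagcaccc
SRSF3, chr6:36594112-36594352, plus strand: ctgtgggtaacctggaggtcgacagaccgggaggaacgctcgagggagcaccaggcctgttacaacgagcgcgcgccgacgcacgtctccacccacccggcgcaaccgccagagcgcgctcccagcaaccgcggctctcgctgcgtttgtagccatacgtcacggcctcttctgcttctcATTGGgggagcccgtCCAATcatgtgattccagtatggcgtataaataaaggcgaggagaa
HNRNPAB, chr5:178204283-178204506, plus strand: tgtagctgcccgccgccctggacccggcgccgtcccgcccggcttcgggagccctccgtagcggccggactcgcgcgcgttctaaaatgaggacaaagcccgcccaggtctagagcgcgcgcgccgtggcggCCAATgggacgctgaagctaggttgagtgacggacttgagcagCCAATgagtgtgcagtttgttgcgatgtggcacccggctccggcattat
HNRNPF, chr10:43408883-43409089, minus strand: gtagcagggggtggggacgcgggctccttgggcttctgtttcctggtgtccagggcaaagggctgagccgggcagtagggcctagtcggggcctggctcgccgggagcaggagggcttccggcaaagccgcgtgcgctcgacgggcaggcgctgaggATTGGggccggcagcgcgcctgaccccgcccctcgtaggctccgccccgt
CLK4, chr5:178627115-178627300, minus strand: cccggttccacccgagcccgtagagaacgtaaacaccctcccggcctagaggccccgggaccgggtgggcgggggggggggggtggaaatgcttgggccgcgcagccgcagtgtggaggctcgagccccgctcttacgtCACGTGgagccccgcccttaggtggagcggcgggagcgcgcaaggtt
SRSF3 and HNRNPAB each hold 2 CCAAT matches, HNRNPF holds 1, CLK4 holds 1 CACGTG, and the whole SRSF1 window holds neither.

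Promoter windows were found for 43 of the 48 genes, not for SRSF2 or TRA2A among those that rose, and the motifs were searched on both strands in the whole 250 bases. The counts by class leave out HNRNPCL1, HNRNPCL2, HNRNPCL4 and SRPK3, which were not tested in PF-382, and the overlapping windows of HNRNPUL2 and HNRNPUL2-BSCL2 share 1 CCAAT match that counts for both. CCAAT occurred in 2 of 12 SR, 14 of 21 hnRNP and 1 of 6 kinase windows, beside 34.5% of 14906 promoters. CACGTG occurred in 0 of 12 SR, 6 of 21 hnRNP and 2 of 6 kinase windows, beside 7.88% of promoters. Neither motif was common to the genes that moved together: CCAAT was in 4 of 13 genes that rose and 1 of 4 that fell, and CACGTG in 3 of 13 and 1 of 4. The windows shown are not a fair sample of these. SRSF3, HNRNPAB and HNRNPF are among the 4 with CCAAT, and CLK4 is the 1 that fell with CACGTG. The genes that rose with CACGTG, HNRNPD, HNRNPDL and HNRNPM, are not shown. The letters GGGCGG (56.9% of promoters), TATAAA (8.96%), CCGGAAG (11.98%) and GAANNTTC (4.78%) occurred in 9, 3, 2 and 0 of the 13 genes that rose and in 2, 0, 1 and 0 of the 4 that fell. These motifs were chosen after the data were seen, and a match is a description of letters only.

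In MOLT-14 the comparison of STAG2-transduced with empty-vector cells has 1 library a group, so it has no replicate check and no test. Of the 42 genes that reached 5 CPM in 1 library or both, 2 were past 1.5-fold, both higher with STAG2, and 0 were lower, beside 3.68% of coding genes higher and 2.76% lower. HNRNPA1 was at 1728 CPM with empty vector and at 2763 CPM with STAG2, a log2 ratio of 0.68 (95% exact binomial interval 0.66 to 0.69, counting error only). HNRNPA1P48, a near-copy that may share reads with it, was at 47.3 and 80.4 CPM, a log2 ratio of 0.77 (0.69 to 0.85). Neither reached 2-fold. No SR gene or kinase was past 1.5-fold.

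The SR genes that rose in the PF-382 knockout had log2 ratios from -0.17 to 0.30 in MOLT-14. SRSF1 was at 420 CPM with empty vector and 464 CPM with STAG2 (log2 ratio 0.14, interval 0.11 to 0.17), and SRSF2 was at 514 and 548 CPM (0.09, interval 0.06 to 0.12). SRSF7 had the largest ratio of the SR genes, 0.30 (189 and 233 CPM), and SRSF8 the lowest, -0.22 (40.01 and 34.4 CPM). The CLK genes that fell in PF-382 had ratios of -0.09 (CLK1, 78.2 and 73.5 CPM), 0.08 (CLK3, 76.5 and 80.7 CPM) and -0.06 (CLK4, 20.03 and 19.2 CPM). Median log2 ratios were 0.09 for 13 SR, 0.19 for 23 hnRNP and 0.05 for 6 kinase genes, beside 0.05 for coding genes, and the kinase median was -0.0046 with upper-quartile scaling.

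The difference between the lines was computed as the knockout effect in PF-382 minus the effect of empty vector over STAG2 in MOLT-14, in a fit over all 7 libraries. The MOLT-14 arms have 1 library each and no spread of their own, so every p value here rests on the assumption that they vary like the PF-382 libraries. Under that assumption 1 of 43 genes was called, SRSF1, beside 0.786% of coding genes. Its log2 effect was 1.53 in PF-382 and -0.14 in MOLT-14, a difference of 1.68 (SE 0.22, adjusted p = 0.0477). The call was lost with upper-quartile scaling (adjusted p = 0.0657) and without any 1 knockout library (0.169 to 0.204). The next genes were SRSF2 (1.42, SE 0.25, adjusted p = 0.0593) and SRSF7 (1.21, SE 0.22, adjusted p = 0.0633). DESeq2 called 11 genes.

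**Figure D4:**
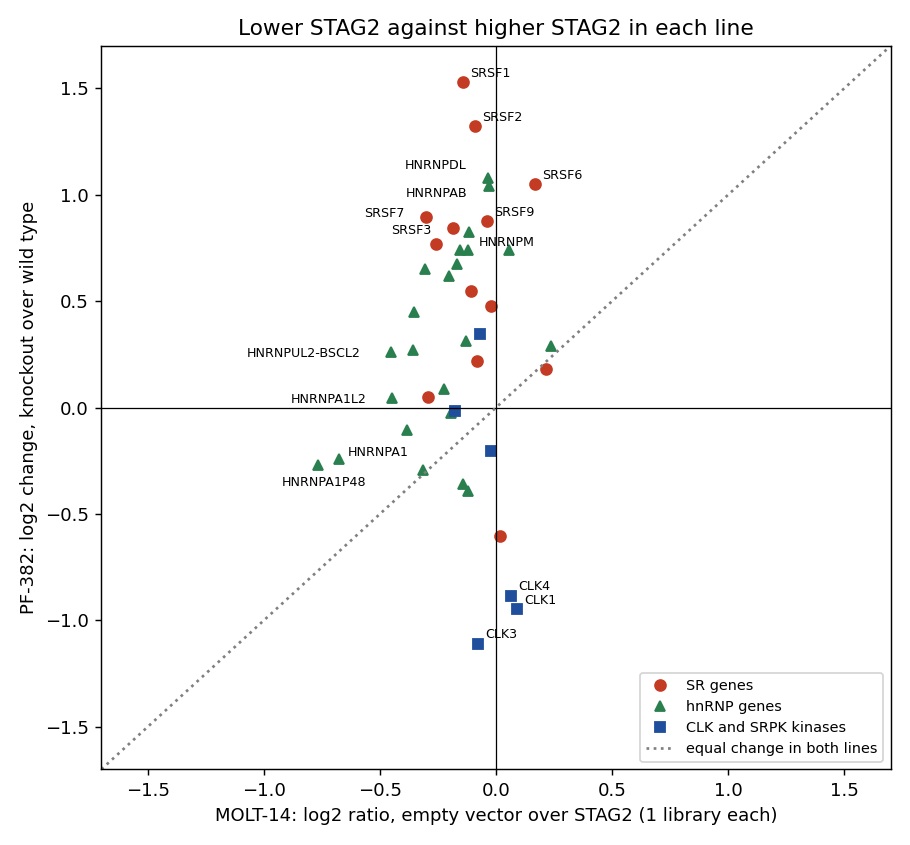
Log2 change of knockout over wild type in PF-382 (vertical axis) against the log2 ratio of empty vector over STAG2 in MOLT-14 (horizontal axis, 1 library each), both with STAG2 lower over higher; each point is 1 gene and the dotted line marks equal change. Points spread from -1.11 to 1.53 along the vertical axis and from -0.77 to 0.24 along the horizontal axis, with SRSF1, SRSF2 and the CLK genes near 0 on the horizontal axis.

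Between the lines, 9 of 43 genes were higher in MOLT-14 and 13 in PF-382 (same fit, means of both groups of each line), beside 27.6% and 32.1% of coding genes. SR genes divided 2 to 5, hnRNP genes 6 to 6 and kinases 1 to 2. In 4 genes both MOLT-14 libraries lay above all PF-382 libraries and in 10 both lay below, beside 27.7% and 30.6% of coding genes. The count depends on which groups are compared, each time with 1 MOLT-14 library: empty-vector MOLT-14 against the knockout was higher in 2 and lower in 17 genes, and STAG2-transduced MOLT-14 against wild type was higher in 9 and lower in 3. These contrasts differ in both groups, so the move cannot be put down to either line's group. The shares of coding genes called in them are not given here. Whether the move is particular to these genes therefore cannot be told. CPM in this comparison are scaled over all 7 libraries, which makes them lower for MOLT-14 and higher for PF-382 than those above. HNRNPA1 was at 1466 and 2314 CPM in MOLT-14 on this scale, against 1728 and 2763 CPM above. SRSF1 in knockout 1 was at 813 CPM, against 757 CPM above.

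SRPK2, a kinase that primes SR proteins in the cytoplasm, was 2.44-fold higher in PF-382, at 115 to 159 CPM against 53.1 and 53.2 CPM in MOLT-14 (log2 -1.29, SE 0.16, adjusted p = 0.00113). Its exons overlap those of KMT2E and AC004884.2 on the other strand, so its counts may hold reads of both. HNRNPC, which binds U-rich RNA and guards against the use of Alu exons, was at 982 to 1628 CPM in PF-382 and 506 and 639 CPM in MOLT-14 (log2 -1.24, SE 0.19, adjusted p = 0.00248). HNRNPLL, a lymphocyte regulator of CD45 splicing, was at 75.6 to 110 CPM and 43.6 and 47.5 CPM (log2 -0.98, SE 0.12, adjusted p = 0.00111). These 3 genes had no overlap between the lines, nor did SRSF3 (336 to 667 CPM against 283 and 318 CPM, log2 -0.67, SE 0.12, adjusted p = 0.0038) and HNRNPA1P48 (71.9 to 110 CPM against 40.1 and 67.3 CPM, log2 -0.75, SE 0.18, adjusted p = 0.0126).

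Higher in MOLT-14 without overlap were CLK2 (48.4 and 53.9 CPM against 21.4 to 32.5 CPM, log2 0.92, SE 0.17, adjusted p = 0.00439), HNRNPH3 (93.9 and 101 CPM against 34.5 to 67.9 CPM, log2 0.91, SE 0.28, adjusted p = 0.0307) and HNRNPUL2-BSCL2 (64.7 and 87.4 CPM against 21.0 to 47.8 CPM, log2 1.12, SE 0.27, adjusted p = 0.0138). HNRNPH3 overlaps exons of RUFY2 on the other strand, so its counts may hold reads of RUFY2. HNRNPUL2-BSCL2 is an annotated readthrough of 2 neighbouring genes, and its reads cannot be told apart from theirs over shared exons. HNRNPM (log2 0.60, SE 0.15, adjusted p = 0.0146) and HNRNPA2B1 (log2 0.59, SE 0.20, adjusted p = 0.0467) were also called, but their MOLT-14 values, 220 and 235 CPM and 520 and 572 CPM, lay within the PF-382 ranges of 109 to 244 CPM and 241 to 607 CPM.

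The files also carry a measure other than level: a gene's count divided by its TPM gives the effective transcript length that the counting assigned, which moves when the mix of isoforms moves. In the annotation, 14 of 14 SR genes, 14 of 23 hnRNP genes and 5 of 6 kinases had a transcript marked for nonsense-mediated decay, beside 43.2% of 13002 coding genes tested, and 11, 14 and 5 had one with a retained intron, beside 56.5%. In PF-382, 8 of 43 genes had a shorter implied length in the knockout and 0 a longer one (limma, adjusted p under 0.05 over 11320 coding genes, each library centred on its median; 1 gene, HNRNPH1, was longer at an unadjusted p under 0.05), beside 7.50% shorter and 2.95% longer. The 8 were 2 SR and 6 hnRNP genes. Of 649 coding genes with only 1 annotated transcript, which have no other isoform to change to, 11.7% were called shorter, and the central 90% of their log2 changes ran from -0.18 to -0.03.

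Bases given here are taken from FPKM and not centred, while log2 changes, SE and adjusted p (limma) come from the centred count over TPM. The bases therefore do not give the log2 changes exactly. HNRNPDL had the largest called change, from 1628 and 1643 bases in wild type to 1397, 1383 and 1370 bases in the knockout (log2 -0.27, SE 0.01, adjusted p = 0.0263). HNRNPA3, a trafficking and splicing hnRNP, went from 3222 and 2986 bases to 2713, 2743 and 2633 bases (log2 -0.23, SE 0.04, adjusted p = 0.037). SRSF7 went from 1264 and 1213 bases to 1111, 1112 and 1080.5 bases (log2 -0.20, SE 0.02, adjusted p = 0.0301). These 3 lay below the band of genes with 1 transcript. HNRNPA2B1 (log2 -0.18), HNRNPU (-0.16), SRSF9 (-0.12), HNRNPC (-0.09) and HNRNPD (-0.07) were called but within that band. Without any 1 knockout library 0 genes were called, and with lengths taken in bases from FPKM and not centred, an alternative chosen after seeing the data, 4 were called.

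**Figure D5:**
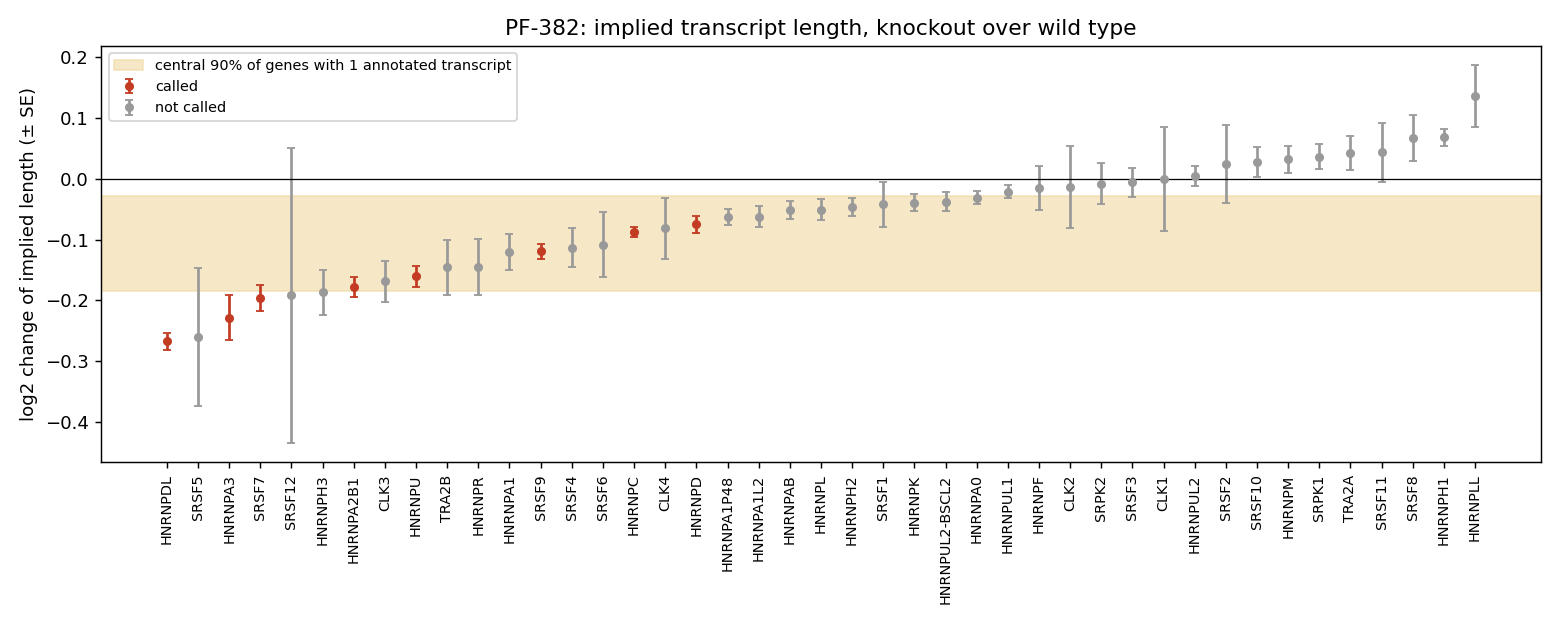
Log2 change of implied transcript length, knockout over wild type in PF-382, for the 43 genes (points) with its standard error (bars); red marks called genes and the shaded band holds the central 90% of 649 coding genes with 1 annotated transcript (-0.18 to -0.03). HNRNPDL, HNRNPA3 and SRSF7 are the red points below the band.

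Between the lines the implied lengths, again in bases from FPKM, differed more, given here as a description with a 1.3-fold limit set after the values were seen. HNRNPH1, which binds G-runs and controls its own splicing, was at 711 and 724 bases in MOLT-14 and at 1111, 1130, 1201, 1192 and 1196 bases in PF-382, 1.62-fold longer in PF-382 with no overlap. SRSF11 was at 1359 and 1268 bases in MOLT-14 and at 1861 to 2092 bases in PF-382. SRSF3 (838 and 755 bases against 1068 to 1110.5), SRSF1 (1692 and 1613 bases against 2191 to 2337) and HNRNPR (1568 and 1500.5 bases against 1912 to 2240) were also shorter in MOLT-14. These 5 of 43 genes were shorter in MOLT-14 by over 1.3-fold and 0 were longer, beside 8.33% of 11194 coding genes shorter and 2.71% longer. Fragment length and library preparation also enter an effective length, and their part was not tested.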

How the data were processed

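Total RNA libraries were quantified by the submitters, whose processing notes name STAR, RSEM, GRCh38 and hg38 without versions; the annotation release and strand setting are not given in the sources used here. The deposited files give an expected count per gene (estimated reads, not normalised, per the file headers), TPM by the authors (per length, scaled to a fixed sum) and FPKM by the authors (per length and library size). Of 60754 features the 92 ERCC spike-ins were left out. Expected counts, 91.8% to 93.3% of them already whole, were rounded.

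The PF-382 counts were tested with edgeR 4.0.16 under R 4.3.3 (filterByExpr, TMM, quasi-likelihood test, two-sided), with Benjamini-Hochberg adjustment over all genes tested and a threshold of 0.05, and the biological coefficient of variation was 0.242. Standard errors were derived from the log2 change and the F statistic. A fit over all 7 libraries and 4 groups gave the comparisons between lines. MOLT-14 was described by log2 ratios with a prior count of 2 among genes of at least 5 CPM. Implied length, the expected count over TPM with at least 20 counts in each PF-382 library, was tested with limma 3.58.1. DESeq2 1.42.0, upper-quartile scaling, other filters and leaving out each PF-382 library were alternatives. At these depths 3 counts make 0.0319 to 0.0920 CPM. Positions and transcript types came from GENCODE 29, where all 48 genes matched by identifier, and promoters from RefSeq (GRCh38.p14). The scripts were tested on simulated data.

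The genes, lists and tests were chosen with earlier results of these data known. Genes named in PF-382 are, per class, up to 8 called genes by smallest adjusted p and the 2 largest changes not called; between lines, up to 5 called genes each way by size; in MOLT-14, every gene past 1.5-fold; for length, every called gene; for lists, up to 4 by smallest adjusted p. In PF-382, HNRNPA1, HNRNPLL, CLK2, SRSF4, SRSF8, SRSF11 and TRA2A, and in MOLT-14 the SR and CLK genes given, fall outside this rule and were chosen after their values were seen. Promoter motifs, annotated transcript types, the band of genes with 1 transcript, the rescaled TPM and the 1.3-fold length comparison were added after the values were seen.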

Additional observations from a re-analysis of the deposited data

Results flagged for a closer look

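The estimated STAG2 effects on SRSF1 in the 2 lines were 1.68 apart on the log2 scale (SE 0.22, edgeR quasi-likelihood interaction term, adjusted p = 0.0477), with SRSF1 higher in all 3 PF-382 knockout libraries than in both wild-type libraries and lower in the single empty-vector library than in the single STAG2 library of MOLT-14. The MOLT-14 arms have 1 library each, and the p value assumes that they vary like the PF-382 libraries. The difference was called without wild type 1 (adjusted p = 0.00992) and without wild type 2 (0.0134), and not without any 1 of the knockout libraries (0.169 to 0.204) or with upper-quartile scaling (0.0657).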

How the results depend on the processing

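Leaving out each PF-382 library in turn gave 11 to 28 called genes in place of 19 in PF-382. By class and direction these were 6 to 11 SR genes higher and 0 to 1 lower, 3 to 13 hnRNP genes higher and 0 to 1 lower, and 0 to 1 kinases higher and 2 to 3 lower. Between lines it gave 12 to 30 called genes in place of 22 (4 to 10 higher in MOLT-14 and 7 to 22 in PF-382), 0 to 14 genes with differing STAG2 effects in place of 1, and 0 to 7 with changed implied length in place of 8. Over all genes, the PF-382 fits without a knockout library called 2271 to 2649 in place of 5311. Of coding genes they called 8.95% to 10.4% higher and 5.84% to 6.42% lower, in place of 19.9% and 12.4%. The fits without a wild-type library rest on 1 wild-type library and called more genes in total than the main fit. Whether the counts by class moved more than those of all coding genes was not tested. Without wild type 2 the log2 changes of SRSF12 and SRPK2 turned to 0.34 and 0.066, and without wild type 1 they were -0.89 and -0.40; neither gene was called. Upper-quartile scaling and protein-coding genes only each called 1 hnRNP gene lower in place of 0, beside 18.3% and 14.8% of coding genes lower. Upper-quartile scaling called 8 genes higher in PF-382 than MOLT-14 in place of 13, and 0 with differing effects, where DESeq2 called 11. A 2-fold limit left 0 genes in MOLT-14. Empty-vector MOLT-14 against the knockout gave 2 genes higher in MOLT-14; STAG2-transduced MOLT-14 against wild type gave 12 calls, 3 of them higher in PF-382. Without centring, count over TPM carries library depth by construction: 43 genes were called, and the log2 changes of HNRNPDL, HNRNPA2B1, HNRNPC, SRSF9, SRSF7, HNRNPU, HNRNPA3 and HNRNPD became 0.85, 0.94, 1.03, 0.9998, 0.92, 0.96, 0.89 and 1.04. Lengths in bases gave 4 calls. For the other changes the cause was not tested. Shares of coding genes called in the contrasts with 1 group of each line are not given here. No paired analysis was possible because the labels give no replicate numbers shared between groups.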
